A study of Mus musculus with 16 samples.

Results

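The nuclear genes of oxidative phosphorylation were followed in GFP-positive cells sorted from mouse retinal organoids, as 84 of the 32166 genes measured. They were chosen by symbol, as names that begin with Ndufa, Ndufb, Ndufc, Ndufs or Ndufv and a digit, with Uqcr, with Cox4 to Cox8 or with Atp5, together with Sdha, Sdhb, Sdhc and Sdhd. Of 88 matching symbols, 4 end in -ps, the mark of a pseudogene, and were left out. The 84 members comprise 35 subunits of complex I, 4 of complex II, 8 of complex III, 20 of complex IV and 15 of complex V, and 2 genes that share the Atp5 prefix but encode no subunit, Atp5s and Atp5sl. Ndufa4 and its paralog Ndufa4l2 are counted with complex IV, where the NDUFA4 protein is known to reside.

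Retinal organoids are aggregates of pluripotent stem cells that form layered retinal tissue in culture. Here they were grown from induced pluripotent stem cells (iPSC) and embryonic stem cells (ESC) of the mouse, and cells positive for GFP were collected by sorting on days 18, 21, 25, 28 and 35 for polyA RNA sequencing. All 16 libraries have the genotype Nrlp-GFP, in which the promoter of Nrl, the transcription factor that specifies rods, drives GFP. Day 18 had 2 iPSC and 3 ESC libraries, day 21 had 1 iPSC and 3 ESC, day 25 had 2 iPSC and 1 ESC, and days 28 and 35 each had 1 iPSC and 1 ESC.

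The iPSC clones were made from embryonic fibroblasts of Nrl-GFP mice with doxycycline-inducible lentiviral vectors for Oct3/4, Sox2, Klf4 and c-Myc, and the ESC clones came from blastocysts of mice with the same transgene. Both kinds of clone were grown on mouse embryonic fibroblast feeders and were used at passage 15 to 25. The labels do not say how many clones gave the libraries. All cultures were kept at 5% oxygen until day 10 and at 20% oxygen afterwards. Retinoic acid at 500 nM was given until day 26, when the medium was replaced in full by one with 2% FBS. The libraries of days 28 and 35 therefore differ from the earlier ones in medium as well as in age, and these cannot be told apart. Since no label ties the libraries of a group to separate cultures, the p-values reflect the spread among these samples alone, and that spread may be technical.

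Oxidative phosphorylation is the final stage of respiration in the inner mitochondrial membrane. Complexes I and II pass electrons to ubiquinone, complex III passes them on to cytochrome c and complex IV to oxygen, and complex V uses the proton gradient built on the way to make ATP. Most subunits are encoded in the nucleus and the remainder in mitochondrial DNA. Several subunits of complexes IV and V have alternative isoforms used in muscle, lung or testis. Photoreceptors are among the most energy-demanding cells of the body, and rods and cones pack their mitochondria into the inner segment.

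The reads behind each library came to between 3818033 (iPSC day 28) and 21785452 (iPSC day 18 replicate 2) estimated counts, so that 1 count was worth 0.0372 to 0.216 CPM, the depth-scaled counts used below. The rod markers (10 genes, among them Nrl, Crx and Gnat1) summed to 12540.2 CPM in iPSC and 4641 CPM in ESC at day 35, against 242 to 4266 CPM at day 18. At day 18 the libraries labelled iPSC replicate 1 and ESC replicate 1 held Nrl at 16 and 17.7 CPM, and the proliferation antigen Mki67 at 462 and 406 CPM. The other 3 day 18 libraries held Nrl at 881, 203 and 136 CPM. Müller glia markers (6 genes) summed to 125 CPM in iPSC and 1134 CPM in ESC at day 35, against 237 to 365 CPM at day 18, and bipolar markers (6 genes) to 86.4 CPM in iPSC and 347 CPM in ESC, against 35.2 to 127 CPM. Progenitor and cycling markers (8 genes) summed to 47 CPM in iPSC and 346 CPM in ESC at day 35, against 199 to 2757 CPM at day 18. Fibroblast markers (5 genes) reached 266 CPM in ESC day 18 replicate 2, and pluripotency and muscle markers (4 genes each) stayed under 6 CPM in sum in every library. In sorted bulk samples, fewer cells of a type and less RNA per cell cannot be told apart.

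**Figure D1:**
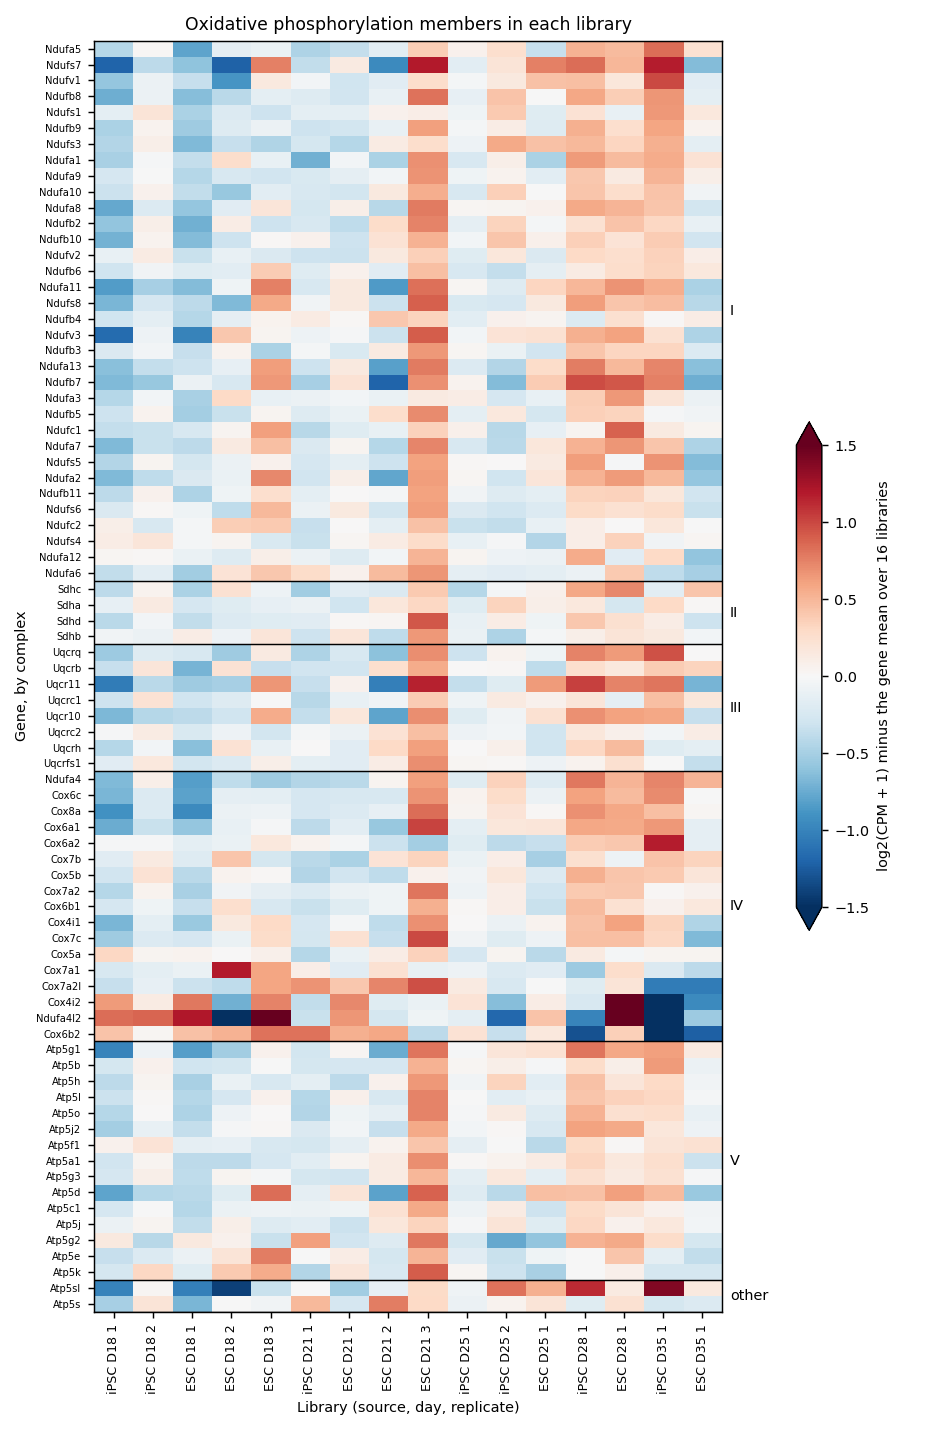
Level of 80 of the 81 members tested, as log2(CPM + 1) minus the gene's mean over 16 libraries (colour, in log2 units), by complex down the page and by library across it, with iPSC left of ESC at each day. ESC day 21 replicate 3 is high across all complexes, and Cox4i2, Ndufa4l2 and Cox6b2 of complex IV have their lowest values in iPSC day 35.

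All but 3 of the 84 members were measured well enough to test, with at least 1 CPM in at least 2 libraries. The 3 exceptions are isoforms of complex IV. Cox7b2, the testis form of subunit 7B, was above 0 in 2 libraries and reached 0.0980 CPM. Cox8b, the form of subunit 8 of heart and skeletal muscle, was above 0 in 10 libraries and reached 0.528 CPM, and Cox8c, the testis form, was at 0 in all 16. Of the other members, 80 had a ratio of the highest library to the lowest, which was 2.4-fold in the median member, under 2-fold in 16 members, 2- to 4-fold in 54 and over 4-fold in 10.

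Members were most often highest in 1 library and lowest in a pair of others. Their summed level was 9294 CPM in ESC day 21 replicate 3, while the other day 21 libraries ranged from 5384 to 5909 CPM, and 49 of the 81 members had their highest value in it. In the same library the rod markers summed to 10198 CPM, and the other 3 of that day had 2137 to 3002 CPM. At the other end, 12 members were lowest in iPSC day 18 replicate 1 and 28 in ESC day 18 replicate 1, the low-Nrl pair. The members summed to 4779.7 CPM in this iPSC and 4655 CPM in this ESC library. Over all genes, the CPM sum was also highest in ESC day 21 replicate 3, at 885155 CPM, where the lowest library had 642418 CPM. The share of all genes with their highest or lowest value in these libraries was not counted. The part of cell composition and of the CPM sum over all genes in the members' sums was not tested.

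By complex, the median deviation of the members from their own means described the same course. For complex I it was 0.45 in iPSC and 0.35 in ESC at day 28, and 0.42 in iPSC and -0.17 in ESC at day 35, in log2 units. Complex III stood at 0.42 in iPSC and -0.07 in ESC at day 35, and complex V at 0.25 in iPSC and -0.07 in ESC. At day 28 both libraries were above the mean in each complex, and at day 35 the iPSC library was above it and the ESC library below it in each complex. In complex IV the ESC value depended on the alternative isoforms. It was -0.13 with them and 0.03 over the 12 usual subunits, where iPSC stood at 0.36.

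**Figure D2:**
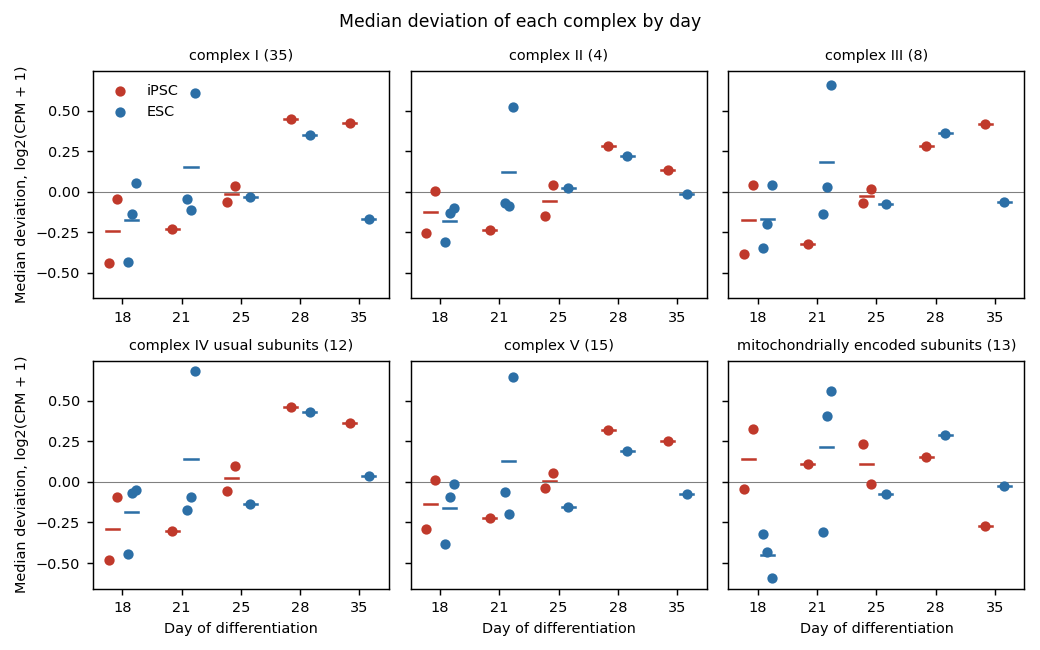
Median deviation of the members of each complex from their own means, in log2(CPM + 1) units, by day of differentiation, with 1 point per library, iPSC in red and ESC in blue, and a bar at the mean of each source and day; the number of genes is in brackets. Complex IV is shown without its alternative isoforms. ESC day 21 replicate 3 is highest in every panel, the mitochondrially encoded subunits included. At day 35 iPSC lies above ESC in the nuclear complexes. The mitochondrially encoded subunits lie at -0.27 in iPSC and -0.02 in ESC at day 35.

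Later days were compared with day 18 in a single limma fit over all 16 libraries with source and day as factors. Calls were made at 0.05 on p-values adjusted over 15202 genes by the method of Benjamini and Hochberg. Log2 fold changes were taken of CPM plus 1, so that they understate what low genes did. At day 28, 75 of 81 members had a positive log2 fold change over day 18, against 47.6% of all genes, and their median was 0.56 against -0.03 for all genes, and none was called in this fit, where 0.579% of all genes were (0.507% higher and 0.0724% lower). Without adjustment 33 members had a p under 0.05 at day 28, and edgeR called 0 of the 55 members it could test (0.397% of all genes called). DESeq2 called 3 of the 55 at day 28 (among them Atp5g1 and Ndufa4), where it called 6.28% of all genes. Day 21 had 65 positive members (51.9% of all genes) with a median of 0.19, which became 41 of 81 and 0.0082 without ESC day 21 replicate 3. Day 25 had 59 (49.9% of all genes) with a median of 0.13, against 35 of 81 and -0.0229 without the low-Nrl day 18 pair and 38 of 81 and -0.0192 with CPM rescaled to a common sum. No member was called by limma at day 21 (0.0% of all genes called) or at day 25 (0.0395%). An unadjusted limma p under 0.05 was found in 6 of 81 members at day 21, against 18.8% of all genes. At day 25 it was found in 3, against 24.4%. Neither edgeR (0.0% of all genes at day 21 and 0.0751% at day 25) nor DESeq2 (1.16% and 10.3%) called a member at these days. These day contrasts share the day 18 libraries, and rescaling CPM to a common sum lowered the median of all genes by 0.13 at days 25, 28 and 35.

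At day 35 limma called 5 of 81 members, where it called 7.53% of all genes. The 3 that rose (4.54% of all genes) included Ndufa4 and Atp5sl, and the 2 that fell (2.99%) were Cox6b2 and Cox7a2l. Of the 81, 66 had a positive log2 fold change, against 53.1% of all genes, with a median of 0.25 against 0.05. Without iPSC day 35 it was 46 of 81 with a median of 0.0448, and without ESC day 35 it was 70 with a median of 0.52. Both day 35 libraries lay above all 5 day 18 libraries in 8 members (9.88%, against 10.9% of all genes), namely Atp5g1, Atp5sl, Cox6c, Cox8a, Ndufa4, Ndufa5, Ndufa9 and Uqcrb, of which Cox6c, Ndufa9 and Uqcrb are named because of this count. They lay below all 5 in 4 members (4.94%, against 10.1%), namely Atp5k, Cox4i2, Cox6b2 and Cox7a2l. Along the whole course, with day as a number, 68 of 81 members had a positive slope (51.5% of all genes). Limma called 5, where it called 12.1% of all genes. The 4 that rose with day (6.81% of all genes) included Ndufa4, Ndufa5 and Atp5sl, and Cox6b2 fell (5.29%). With CPM rescaled to a common sum, 6 members were called at day 35 (8.04% of all genes called), 3 higher and 3 lower. The same scaling gave 6 along the course (13% of all genes), 4 higher and 2 lower.

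The count at day 35 depended on single libraries and on the test, and so did the share of all genes called. It was 0 without day 35 iPSC, 1 without day 18 ESC replicate 1, day 21 ESC replicate 2, day 18 iPSC replicate 1 or day 25 iPSC replicate 2, 2 without day 25 ESC, day 35 ESC or day 21 iPSC, 3 without day 18 ESC replicate 3 or day 25 iPSC replicate 1. It was 7 without day 18 ESC replicate 2 (12% of all genes called) and 4 or 5 in the removals not named here (6.45 to 9.61%). Over the removals that kept both day 35 libraries, 2.33 to 12% of all genes were called. With the low-Nrl pair left out the count was 0 (0.993% of all genes). The day 35 count by edgeR was 0 of 55 members (6.9% of all genes called) and by DESeq2 2 of 55 (16.9%), Ndufa4 and Cox4i2. Gene sums of counts were complete for 56 members, which do not include Atp5sl, Cox6b2, Cox7a2l and Ndufa5. Neither edgeR nor DESeq2 therefore tested these genes. Along the course the count was 1 without iPSC day 35, where 3.66% of all genes were called. Without ESC day 35 it was 19 (22.1% of all genes), and without ESC day 21 replicate 3 it was 15 (15.4%). It was 1, Cox6b2, when the low-Nrl pair was left out (5.26%). By edgeR the slope was called in 2 of 55 members (13.5% of all genes), Ndufa4 among them. By DESeq2 it was called in 5 (21.4%), of which Cox6c and Ndufs1 are named because of this count and which also include Atp5g1 and Ndufa4.

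**Figure D3:**
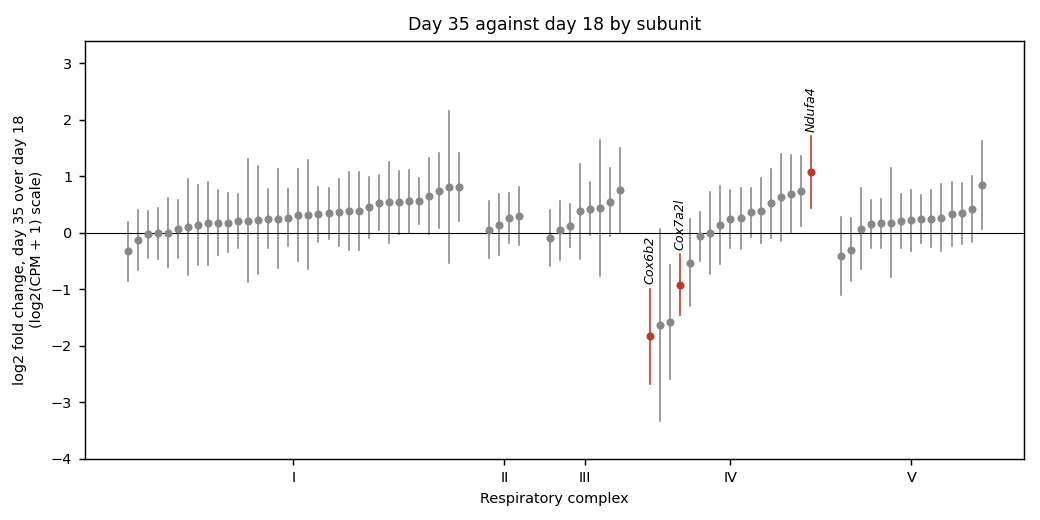
Log2 fold change of day 35 over day 18 on the log2(CPM + 1) scale for the subunits reported, ordered within complexes I to V; dots are estimates, lines 95% confidence intervals, and red marks an adjusted p under 0.05. Most intervals span 0, and the falls of more than 0.6 are all in complex IV.

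The promoters of 5 members are shown because the called genes and their neighbours in function can be compared by the sites that nuclear respiratory genes are known for. They run from 250 bases before to 50 after the annotated start, in RefSeq's annotation of GRCm38.p6, all on the minus strand. Capitals mark a match to 1 of 4 motifs searched on both strands: TGCGCA, the core of sites for NRF1; CCGGAAG, the core of ETS-family sites such as those of GABPA; AAGGTCA, the half-site of the ERR receptors; and TAATCC, the core of sites for the photoreceptor factor CRX. Ndufa4 lies at chr6:11907401-11907700, Ndufa5 at chr6:24527477-24527776, Cox6b2 at chr7:4753045-4753344, Cox7a2l at chr17:83514284-83514583 and Cox6b1 at chr7:30626065-30626364.
Ndufa4: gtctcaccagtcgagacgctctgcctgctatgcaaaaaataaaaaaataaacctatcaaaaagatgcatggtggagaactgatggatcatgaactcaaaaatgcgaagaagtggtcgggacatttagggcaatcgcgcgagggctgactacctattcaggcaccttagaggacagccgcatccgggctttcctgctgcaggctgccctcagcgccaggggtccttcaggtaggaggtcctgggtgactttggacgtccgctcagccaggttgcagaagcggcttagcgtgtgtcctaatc
Ndufa5: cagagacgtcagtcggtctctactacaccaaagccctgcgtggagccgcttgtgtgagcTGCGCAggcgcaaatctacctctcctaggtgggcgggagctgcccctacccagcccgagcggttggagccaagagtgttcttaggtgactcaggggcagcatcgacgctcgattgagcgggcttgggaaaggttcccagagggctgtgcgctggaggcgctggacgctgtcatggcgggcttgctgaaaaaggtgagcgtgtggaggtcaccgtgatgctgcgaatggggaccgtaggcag
Cox6b2: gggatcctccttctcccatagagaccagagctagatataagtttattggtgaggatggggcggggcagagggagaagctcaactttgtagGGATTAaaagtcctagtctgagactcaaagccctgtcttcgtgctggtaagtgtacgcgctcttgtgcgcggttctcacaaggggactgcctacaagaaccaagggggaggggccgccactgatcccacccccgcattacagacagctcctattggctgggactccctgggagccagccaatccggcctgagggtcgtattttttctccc
Cox7a2l: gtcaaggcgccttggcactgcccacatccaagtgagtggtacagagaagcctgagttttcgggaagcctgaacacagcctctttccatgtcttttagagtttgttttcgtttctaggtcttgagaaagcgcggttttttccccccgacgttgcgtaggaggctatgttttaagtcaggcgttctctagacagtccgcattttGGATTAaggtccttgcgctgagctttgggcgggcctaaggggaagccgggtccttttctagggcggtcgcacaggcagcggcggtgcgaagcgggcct
Cox6b1: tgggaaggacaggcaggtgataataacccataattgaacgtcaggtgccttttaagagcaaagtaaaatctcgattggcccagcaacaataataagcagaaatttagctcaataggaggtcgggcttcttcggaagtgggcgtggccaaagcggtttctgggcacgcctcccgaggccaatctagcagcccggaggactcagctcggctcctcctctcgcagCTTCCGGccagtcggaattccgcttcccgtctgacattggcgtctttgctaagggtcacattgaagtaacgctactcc

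Of these, Ndufa5 held TGCGCA and Cox6b1 held CCGGAAG, in Cox6b1 as its reverse complement. Cox6b2 and Cox7a2l each held TAATCC as its reverse complement, and Ndufa4 held none of the 4 motifs in this window. The called gene Atp5sl is not shown, and neither of its 2 annotated promoters held any of the 4 motifs. Ndufa5 has another annotated promoter, not shown, which also held TGCGCA. RefSeq promoters were matched for 69 members. A member was counted if any of its promoters held the motif, while the share of all promoters counts each promoter singly. Members with several promoters thus had more chances to match, and the shares are not of like units. TGCGCA was present in 18 of the 69 (26.1%), against 7.8% of all 32544 promoters, and CCGGAAG in 16 (23.2%), against 8.9%. AAGGTCA was present in 8 members (11.6%), against 4.7% of all promoters, and TAATCC in 6 (8.7%), against 7.1%. These matches are descriptions of the letters and no measure of binding.

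In complex I, the entry point for electrons from NADH, Ndufa5 rose along the course. It encodes an accessory subunit of the arm that reaches into the matrix. Ndufa5 measured 20.5 and 28.2 CPM in iPSC and 15.8, 25.4 and 25.9 CPM in ESC libraries at day 18. For Ndufa5, day 21 gave 19.9 CPM in the iPSC and 21.5, 25 and 36.5 CPM in the ESC libraries, and day 25 gave 29.1 and 33.3 CPM in iPSC and 21.7 CPM in ESC libraries. In Ndufa5, day 28 gave 40.5 CPM in iPSC and 39.1 CPM in ESC, and day 35 gave 50.8 CPM in iPSC and 32.9 CPM in ESC. Both day 35 libraries exceeded every day 18 library. The slope was 0.052 ± 0.015 log2 units per day (limma, adjusted p = 0.0317), and at day 35 the log2 fold change was 0.81 (adjusted p = 0.0938). Its slope lost the call without day 18 ESC replicate 1, day 28 ESC, day 18 iPSC replicate 1, day 28 iPSC and day 35 iPSC (adjusted p over the 16 removals 0.0161 to 0.144).

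The 7 core subunits, which include those that carry the flavin and the iron-sulfur clusters, all had positive log2 fold changes at day 35 (median 0.56), as did 24 of the 28 accessory subunits (median 0.24), against 53.1% of all genes. By source, 33 of the 35 complex I genes changed upward in iPSC and 19 in ESC. The core subunits Ndufs7 and Ndufs8, named because of this count, had 1.97 and 0.93 in iPSC but -0.29 and -0.25 in ESC. In the fit over both sources, Ndufa6, an accessory subunit of the LYR family, had the lowest log2 fold change of the complex at day 35, -0.33 (95% confidence interval -0.86 to 0.19, limma, adjusted p = 0.426). Ndufv3, an accessory subunit of the NADH-oxidising tip and 1 of the 2 genes of highest mean CPM in the complex, stood at 139.7 CPM in iPSC and 86.4 CPM in ESC at day 35, against 53.2 to 158 CPM at day 18.

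Complex II, succinate dehydrogenase, also belongs to the citric acid cycle and has no mitochondrially encoded subunit. None of its 4 genes was called in any contrast by limma. Sdha, the flavoprotein that oxidises succinate, measured 216 CPM in iPSC and 176 CPM in ESC at day 35, against 146 to 192 CPM in the 5 day 18 libraries. Its log2 fold change was 0.25 (95% confidence interval -0.19 to 0.70, limma, adjusted p = 0.474). Sdhc, a membrane anchor, measured 55.2 CPM in iPSC and 82.7 CPM in ESC at day 35, against 43.9 to 72.1 CPM at day 18 (0.30, adjusted p = 0.474). For the iron-sulfur subunit Sdhb and the second anchor Sdhd the log2 fold changes were 0.06 (interval -0.45 to 0.56) and 0.14 (interval -0.40 to 0.69), and their sign turned negative when CPM was rescaled. Sdhd reached 147 CPM in ESC day 21 replicate 3, and the other 3 libraries of day 21 had 68 to 78.2 CPM.

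Complex III hands electrons from ubiquinol to cytochrome c, and none of its 8 genes under the symbol rule was called in any contrast by limma. Uqcrq, a small subunit of the membrane core, had the highest log2 fold change of the 8 at day 35. Its level was 44.3 CPM in iPSC and 22.6 CPM in ESC at day 35, against 15.1 and 19.4 CPM in iPSC and 18.8, 15.2 and 24.7 CPM in ESC at day 18. The ESC library lay within the day 18 range and the iPSC library above it (log2 fold change 0.76, 95% confidence interval 0.01 to 1.5, limma, adjusted p = 0.192). Uqcrfs1, the Rieske iron-sulfur protein, measured 78.9 CPM in iPSC and 61.6 CPM in ESC at day 35, against 64.8 to 87.9 CPM at day 18 (-0.10, interval -0.59 to 0.39). The 2 genes of highest mean CPM were the core protein Uqcrc2 and the hinge protein Uqcrh. Uqcrc2 had the smallest SD across libraries of the 81 members, 0.192 log2 units, with 98.8 to 167 CPM over the 16 libraries, and Uqcrh ran from 80.5 to 193 CPM.

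Complex IV, cytochrome c oxidase, held 3 subunits called at day 35 of 17 tested (7.53% of all genes called), 1 higher and 2 lower. Ndufa4, a subunit of the assembled enzyme despite its name, rose. It lies at chr6:11900292-11907497 (GRCm38, minus strand). Ndufa4 measured 61.2 and 104 CPM in iPSC and 54.7, 74.9 and 67 CPM in ESC libraries at day 18. For Ndufa4, day 21 gave 72 CPM in the iPSC and 73.3, 101 and 150.4 CPM in the ESC libraries, and day 25 gave 86 and 124 CPM in iPSC and 85.4 CPM in ESC libraries. In Ndufa4, day 28 gave 169 CPM in iPSC and 139 CPM in ESC, and day 35 gave 163 CPM in iPSC and 139 CPM in ESC. Both day 35 libraries exceeded all 5 day 18 libraries, and the ESC and iPSC values were close to each other. Day 35 exceeded day 18 by a log2 fold change of 1.07 ± 0.30 (SE; limma, adjusted p = 0.0451) and the slope 0.067 ± 0.017 log2 units per day (adjusted p = 0.0168). The day 35 call was kept without day 18 ESC replicate 2, day 21 ESC replicate 1, day 21 ESC replicate 3, day 18 iPSC replicate 2 and day 21 iPSC and lost without each of the other 11 libraries (adjusted p over the 16 removals 0.0228 to 0.225), and the slope lost its call without iPSC day 35 (adjusted p = 0.06). By edgeR its day 35 adjusted p was 0.0642.

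Cox6b2, the testis isoform of subunit 6B, fell. It lies at chr7:4751792-4753094 (GRCm38, minus strand). Cox6b2 measured 25.6 and 19.2 CPM in iPSC and 25.8, 27.5 and 33.9 CPM in ESC libraries at day 18. For Cox6b2, day 21 gave 33.9 CPM in the iPSC and 27.6, 28.6 and 14.1 CPM in the ESC libraries, and day 25 gave 22 and 14.6 CPM in iPSC and 21.2 CPM in ESC libraries. In Cox6b2, day 28 gave 7.02 CPM in iPSC and 24.5 CPM in ESC, and day 35 gave 5.41 CPM in iPSC and 7.51 CPM in ESC. Both day 35 libraries lay below all 5 day 18 libraries, and iPSC day 28 was already at the day 35 level while ESC day 28 was not. The log2 fold change was -1.84 ± 0.39 at day 35 (SE; limma, adjusted p = 0.0186), the largest fall among the members, with -1.85 in iPSC and -1.81 in ESC. The slope was -0.105 ± 0.021 log2 units per day (adjusted p = 0.00581). The day 35 call was lost without day 35 ESC and day 35 iPSC (limma, adjusted p = 0.0608 and 0.114), and the slope kept its call in all 16 removals (0.00287 to 0.045). With both day 35 libraries removed together the slope was -0.077 (adjusted p = 0.137).

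Its counterpart Cox6b1, the isoform of most tissues, measured 81.3 CPM in iPSC and 87.3 CPM in ESC at day 35, against 61 to 92.7 CPM at day 18. Its log2 fold change was 0.24 (interval -0.26 to 0.75, limma, adjusted p = 0.557). The 2 isoforms thus had changes of opposite sign, of which that of Cox6b2 alone was called.

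Cox7a2l, also named SCAF1, links complexes III and IV into supercomplexes. It lies at chr17:83501918-83517330 (GRCm38, minus strand). Cox7a2l measured 118 and 138 CPM in iPSC and 121, 116 and 229 CPM in ESC libraries at day 18. For Cox7a2l, day 21 gave 241 CPM in the iPSC and 201, 251 and 298 CPM in the ESC libraries, and day 25 gave 166 and 128 CPM in iPSC and 150.4 CPM in ESC libraries. In Cox7a2l, day 28 gave 134 CPM in iPSC and 174 CPM in ESC, and day 35 gave 72.5 CPM in iPSC and 72.3 CPM in ESC. The 4 day 21 libraries held 201 CPM or more, above all day 18 libraries but ESC replicate 3, and the 2 day 35 libraries lay below every other library. The log2 fold change was 0.79 at day 21 (limma, adjusted p = 0.217) and -0.92 ± 0.25 (SE) at day 35 (adjusted p = 0.041). The day 35 call was kept without day 18 ESC replicate 2, day 18 ESC replicate 3, day 21 ESC replicate 1, day 21 ESC replicate 3, day 28 ESC, day 25 iPSC replicate 1 and day 28 iPSC and lost without each of the other 9 libraries (adjusted p over the 16 removals 0.0246 to 0.16). A near-identical copy, Gm6969, held 0.81% of the mean CPM of the pair.

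Cox7a2, the isoform of most tissues, measured 86.4 CPM in iPSC and 89.3 CPM in ESC at day 35, against 60.6 to 88.6 CPM at day 18 (0.25, interval -0.29 to 0.79). Cox7a1, the heart and skeletal muscle form, stayed at 0.738 to 4.8 CPM over the 16 libraries. Its highest value was in ESC day 18 replicate 2, and its log2 fold change at day 35 was -0.53 (limma, adjusted p = 0.381).

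**Figure D4:**
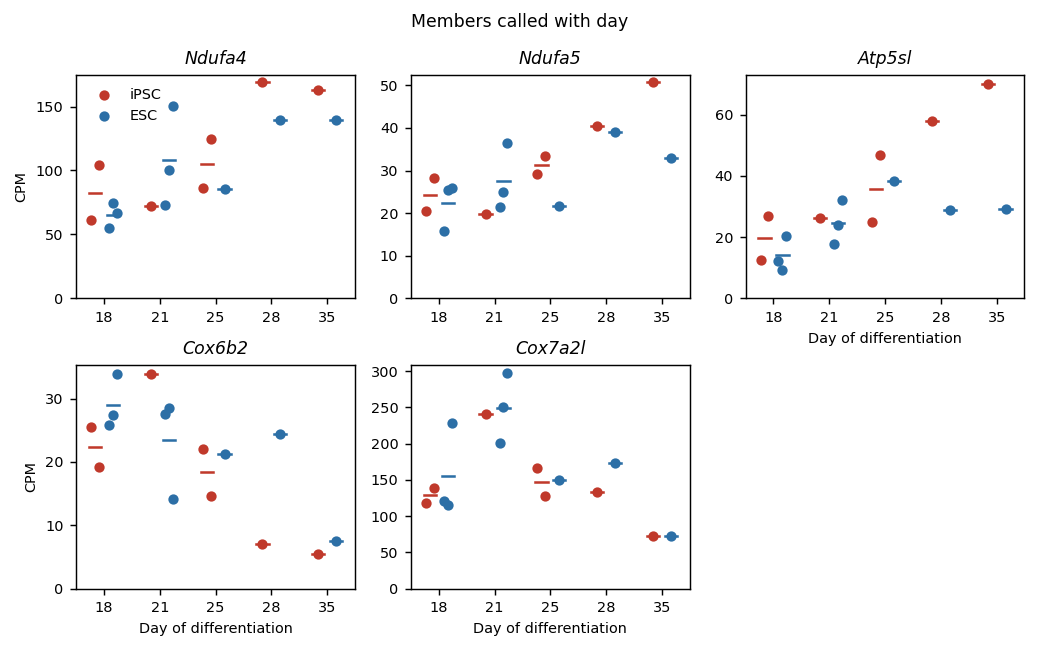
CPM of 5 members called at day 35 or along the course (Ndufa4, Ndufa5, Atp5sl, Cox6b2, Cox7a2l) by day of differentiation, with 1 point per library, iPSC in red and ESC in blue, and a bar at the mean of each source and day. Ndufa5 and Atp5sl at day 35 lie higher in iPSC than in ESC, while Ndufa4, Cox6b2 and Cox7a2l have similar values in both sources at day 35.

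Cox4i2, the isoform of subunit 4 known from lung and from cells in low oxygen, had low values at day 35. Cox4i2 measured 33 and 22.8 CPM in iPSC and 36.7, 12.2 and 35.4 CPM in ESC libraries at day 18. For Cox4i2, day 21 gave 15.8 CPM in the iPSC and 35, 18.2 and 19.4 CPM in the ESC libraries, and day 25 gave 24.1 and 12.9 CPM in iPSC and 22.4 CPM in ESC libraries. In Cox4i2, day 28 gave 17.4 CPM in iPSC and 61.2 CPM in ESC, and day 35 gave 5.91 CPM in iPSC and 10.2 CPM in ESC. Both day 35 libraries lay below all 5 day 18 libraries, and ESC day 28 was the highest of the 16. The log2 fold change at day 35 was -1.58 (interval -2.58 to -0.57, limma, adjusted p = 0.0564), which misses the threshold. It passed without day 18 ESC replicate 2, day 28 ESC and day 28 iPSC (adjusted p over the 16 removals 0.00999 to 0.26), and DESeq2 on gene sums gave an adjusted p of 0.00343. On the scale of TPM, which divides by transcript length as well as depth, Cox4i2 made up 2.41% of Cox4i1 and Cox4i2 together in iPSC and 6.84% in ESC at day 35, against 21.8 and 11.7% in iPSC and 22.2, 5.48 and 13.1% in ESC at day 18. The share overlapped between the days through ESC day 18 replicate 2.

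Cox4i1, the common form of subunit 4, measured 205 CPM in iPSC and 119 CPM in ESC at day 35, against 101 to 201 CPM at day 18. Its log2 fold change of 0.14 (interval -0.55 to 0.83) was negative when CPM was rescaled, without the low-Nrl pair and without iPSC day 35.

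Ndufa4l2, the paralog of Ndufa4 known as a target of the hypoxia factor HIF1, varied most of all members, with an SD of 1.09 log2 units across libraries. Ndufa4l2 measured 64.5 and 66 CPM in iPSC and 82.8, 9.51 and 103 CPM in ESC libraries at day 18. For Ndufa4l2, day 21 gave 28 CPM in the iPSC and 57, 29.5 and 33.9 CPM in the ESC libraries, and day 25 gave 32.1 and 15.2 CPM in iPSC and 48.2 CPM in ESC libraries. In Ndufa4l2, day 28 gave 17.4 CPM in iPSC and 110.2 CPM in ESC, and day 35 gave 9.48 CPM in iPSC and 24.1 CPM in ESC. The day 35 libraries lay below 4 of the 5 day 18 libraries, and ESC day 18 replicate 2 was as low as iPSC day 35. The log2 fold change was -1.63 (interval -3.33 to 0.06, limma, adjusted p = 0.216), and without day 18 ESC replicate 2 it was -2.28 (adjusted p = 0.00978). In the same library, ESC day 18 replicate 2, Cox4i2 was also the lowest of the 5 day 18 values, and the fibroblast markers were at their highest.

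The remaining isoform pairs of complex IV were close to 1-sided. Cox6a2, the heart and skeletal muscle form of subunit 6A, made up 0.05 to 1.61% of the TPM of Cox6a1 and Cox6a2, with the highest share in iPSC day 35. Its level there was 2.57 CPM, against 0.436 CPM in ESC day 35 and 0.429 to 0.754 CPM at day 18, and its log2 fold change of 0.52 turned to -0.07 without iPSC day 35. Cox6a1 measured 123 CPM in iPSC and 71.1 CPM in ESC at day 35, against 46.2 to 77.2 CPM at day 18. Cox7b2 made up at most 0.24% of Cox7b and Cox7b2, and Cox7b ran from 30.8 to 59.3 CPM over the 16 libraries. Cox8a, the common form of subunit 8, measured 138 CPM in iPSC and 103 CPM in ESC at day 35, against 53.2 and 87.2 CPM in iPSC and 51.4, 95.1 and 95.4 CPM in ESC at day 18. Both day 35 values of Cox8a were above every day 18 value (log2 fold change 0.69 ± 0.32, SE, limma, adjusted p = 0.196).

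Taken as a list, the 8 alternative isoforms (Cox4i2, Cox6a2, Cox6b2, Cox7a1, Cox7b2, Cox8b, Cox8c and Ndufa4l2) summed to 24.7 CPM in iPSC and 43.8 CPM in ESC at day 35, against 54.8 to 176 CPM at day 18. The course between was not even. Their sum at day 28 was 43.8 CPM in iPSC and 199 CPM in ESC, the highest of the 16 libraries, and 44.3 CPM in iPSC day 25 replicate 2. Of the 5 tested, 4 had negative log2 fold changes at day 35, where 53.1% of all genes were positive. Of these, 1, Cox6b2, was called by limma, where 2.99% of all genes were called lower, and 5 genes are too few to set against that share. The muscle markers summed to 3.1 CPM in iPSC and 1.4 CPM in ESC at day 35, against 0.4 to 1.6 CPM at day 18.

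**Figure D5:**
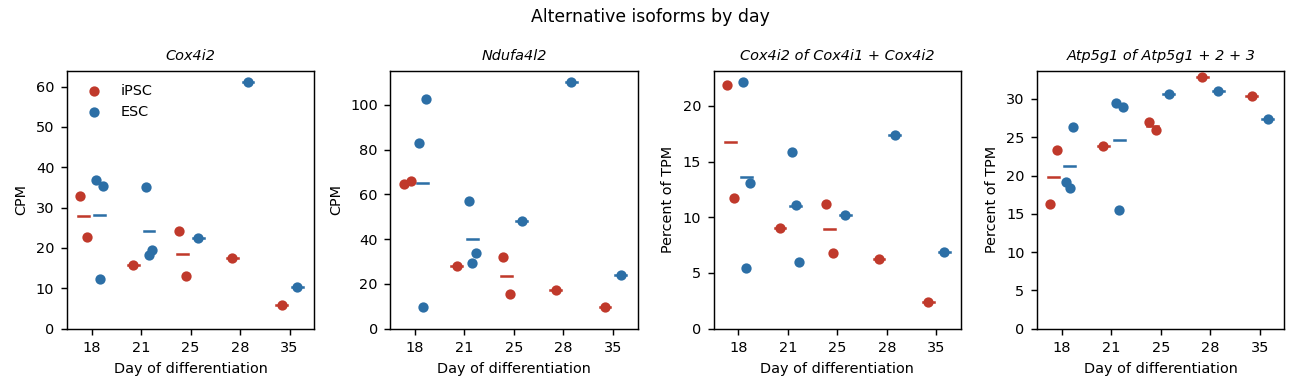
Left, CPM of Cox4i2 and Ndufa4l2 by day of differentiation; right, the percent of TPM that Cox4i2 made up of Cox4i1 and Cox4i2, and Atp5g1 of the 3 Atp5g genes. Points are libraries, iPSC in red and ESC in blue, and bars are means of each source and day; the day 35 libraries are low in Cox4i2, and the share of Atp5g1 was between 15.5 and 32.8%.

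Complex V, the ATP synthase, had no called gene by limma among its 15, where 7.53% of all genes were called at day 35 and 12.1% along the course. At day 35, 13 of the 15 had positive log2 fold changes (53.1% of all genes), with a median of 0.22. Atp5b, the catalytic beta subunit, had the highest per-length level of the 56 members with complete transcripts, at 900.4 to 1785 TPM with a median of 1159.5. The medians next in order were those of Uqcrh (720.4 TPM), Cox4i1 (693 TPM), Cox6c (672 TPM) and Ndufa4 (659 TPM), whose ranges over the libraries overlap. In CPM, Atp5b measured 1064 in iPSC and 642 in ESC at day 35, against 553 to 709 at day 18. Atp5a1, the alpha subunit, measured 557 CPM in iPSC and 373 CPM in ESC at day 35, against 355 to 479 CPM at day 18.

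Subunit c, which forms the rotating ring, is encoded by 3 genes that differ in their import sequence and give the same mature protein. Atp5g1 measured 90.5 CPM in iPSC and 64.7 CPM in ESC at day 35, against 29.2 and 56.1 CPM in iPSC and 32.8, 40.8 and 61.8 CPM in ESC at day 18. Both day 35 values were above every day 18 value (log2 fold change 0.84, interval 0.06 to 1.63, limma, adjusted p = 0.166). Its share of the TPM of the 3 genes was 30.4% in iPSC and 27.4% in ESC at day 35, against 16.2 to 26.4% at day 18. Atp5g3 ran from 114 to 209 CPM over the 16 libraries (0.20 at day 35, interval -0.28 to 0.68).

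Atp5g2 is uncertain, because a near-identical copy, Gm10175, was assigned 113 CPM in the mean against 11.4 CPM for the gene itself. At day 35 Atp5g2 measured 13.3 CPM in iPSC and 8.9 CPM in ESC, against 7.9 to 12.1 CPM at day 18, and its log2 fold change was 0.07 as counted and -0.15 with the copies added. Near-identical copies held 8.18% of the CPM of Atp5l, 5.82% of that of Ndufa12 and 2.94% of that of Ndufs5, and under 1% for each other member. Atp5k, subunit e, which joins synthase dimers, had the lowest log2 fold change of the complex at day 35. It measured 28.5 CPM in iPSC and 28.5 CPM in ESC, below all day 18 values of 28.6 and 43 CPM in iPSC and 30.2, 45.6 and 51.1 CPM in ESC (log2 fold change -0.41, interval -1.10 to 0.28, limma, adjusted p = 0.457).

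Atp5sl, now named Dmac2, encodes an assembly factor of the distal membrane arm of complex I and no subunit of the synthase. Atp5sl measured 12.5 and 26.8 CPM in iPSC and 12.3, 9.31 and 20.4 CPM in ESC libraries at day 18. For Atp5sl, day 21 gave 26.2 CPM in the iPSC and 17.9, 24 and 32.2 CPM in the ESC libraries, and day 25 gave 24.9 and 46.7 CPM in iPSC and 38.4 CPM in ESC libraries. In Atp5sl, day 28 gave 57.9 CPM in iPSC and 28.8 CPM in ESC, and day 35 gave 70.1 CPM in iPSC and 29.1 CPM in ESC. Both day 35 libraries exceeded all 5 day 18 libraries, by more in iPSC. Its log2 fold change was 1.47 ± 0.40 at day 35 (SE; limma, adjusted p = 0.0407), the largest rise among the 81, with 1.87 in iPSC and 1.07 in ESC. The slope was 0.090 ± 0.022 log2 units per day (adjusted p = 0.0166). The day 35 call was lost without day 18 ESC replicate 1, day 21 ESC replicate 2, day 35 ESC, day 18 iPSC replicate 1, day 21 iPSC, day 25 iPSC replicate 2 and day 35 iPSC (adjusted p over the 16 removals 0.0277 to 0.316), and the slope call without iPSC day 35 (adjusted p = 0.0778). Atp5s, now Dmac2l, ran from 8.08 to 24 CPM over the 16 libraries and was called in no contrast by limma.

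The iPSC and ESC libraries were compared next, with day accounted for. None of the 81 members was called by limma (0.0% of all genes called, smallest adjusted p = 0.753, Atp5e). An unadjusted limma p under 0.05 was found in 2, against 5.5% of all genes, and edgeR and DESeq2 called 0 of 55. Of the 81, 36 had a positive log2 fold change of iPSC over ESC, against 53.6% of all genes, with a median of -0.01. That count was 22 of 81 (median -0.0965) with CPM rescaled to a common sum and 50 of 81 (median 0.0408) without ESC day 21 replicate 3. Over the removal of single libraries it lay between 28 and 52 of 81, so that the sign of the median rested on single libraries. Ndufa4l2 had the lowest value, -0.64 (interval -1.70 to 0.42).

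The courses of both sources were then compared by their slopes. The slope in iPSC was above that in ESC in 72 of 81 members, against 44.9% of all genes, with a median difference of 0.026 log2 units per day. No difference was called by limma (0.0% of all genes called, smallest adjusted p = 0.485, Ndufs5). An unadjusted limma p under 0.05 was found in 5 members, against 8.1% of all genes. No member was called by edgeR (0.0% of all genes) or by DESeq2 (0.461%). Without ESC day 35 the slope was higher in iPSC in 45 of 81 members, with a median difference of 0.0035, and with array weights in 41 of 81, with 0.0021. From day 18 to day 35 the members had a median change of 0.47 in iPSC and 0.05 in ESC on the log2 scale. For complex I these medians were 0.71 in iPSC and 0.03 in ESC, for complex III 0.48 in iPSC and 0.13 in ESC, and for complex V 0.40 in iPSC and 0.09 in ESC. The change was positive in both sources in 44 members, in iPSC alone in 26, in ESC alone in 3 and in neither in 8. Each source has 1 library at day 35. All 6 Müller glia markers, all 6 bipolar markers and all 5 pigment epithelium markers were lower in iPSC than in ESC at day 35, and the pigment epithelium markers summed to 8.5 CPM in iPSC and 87.1 CPM in ESC, with Rpe65 at 0 in iPSC and 0.0450 CPM in ESC. Their part in the difference was not tested.

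GC content moved with this comparison too. Across the 76 members with a transcript GC content, Spearman's rho between GC content and the slope difference of iPSC from ESC was 0.56, against 0.31 across 14203 genes; genes are not independent replicates. The 26 members of highest GC content (54.1 to 61.1%), among them Cox4i1, Cox8a and Atp5k, had a median deviation of 0.45 in iPSC and -0.28 in ESC at day 35. The 25 of lowest GC content (42.0 to 49.9%), among them Ndufa4, Cox7b and Uqcrb, had 0.31 in iPSC and 0.01 in ESC. At day 28 the rho between GC content and the log2 fold change over day 18 was 0.45 across the members, and at day 35 it was 0.14. The part of GC content in these differences was not tested.

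Of the 13 subunits encoded in mitochondrial DNA, none was called by limma at day 35, along the course or between sources. All 13 had a positive log2 fold change over day 18 at day 21 (median 0.46, 51.9% of all genes positive), 11 at day 25 (0.15, 49.9%), 11 at day 28 (0.39, 47.6%) and 6 at day 35 (-0.04, 53.1%), and no call was made at days 21, 25 or 28 either. Between sources all 13 were positive for iPSC over ESC (median 0.16, 53.6% of all genes). They summed to 24335 CPM in iPSC and 27205 CPM in ESC at day 35, against 21465 to 35319.7 CPM at day 18. Over the nuclear members, that sum was 3.07-fold in iPSC and 4.84-fold in ESC at day 35, against 5.94- and 5.78-fold in iPSC and 4.99-, 3.99- and 3.44-fold in ESC at day 18. The ratio was lowest in iPSC day 35 and highest in ESC day 21 replicate 2 (7.51-fold). The catalytic subunit of complex IV, mt-Co1, was the highest of the 13 in CPM. Its log2 fold change at day 35 was -0.04 (limma, adjusted p = 0.980).

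Among other genes of the pathway, 2 of 44 assembly factors tested rose by limma at day 35, where 4.54% of all genes did, and the same 2 along the course (6.81%). Uqcc3, needed to assemble complex III, measured 72 CPM in iPSC and 23.5 CPM in ESC at day 35, against 7.46 to 17.5 CPM at day 18 (log2 fold change 1.75, adjusted p = 0.0335). Ndufaf5, an assembly factor of complex I, measured 30.2 CPM in iPSC and 21 CPM in ESC, against 9.48 to 15.8 CPM (1.09, adjusted p = 0.0368). Of 17 regulators of mitochondrial biogenesis tested, 2 rose by limma at day 35 (4.54% of all genes) and along the course (6.81%), and none fell (2.99% and 5.29%). As a list they did not rise at day 35, with 7 positive and 10 negative log2 fold changes and a median of -0.04. Esrrb, a nuclear receptor of the ERR family expressed in rods, measured 47.1 CPM in iPSC and 21.9 CPM in ESC at day 35, against 0.482 to 1.13 CPM at day 18 (4.16, limma, adjusted p = 0.000829). Ppargc1b, a coactivator of ERR receptors, measured 61.3 CPM in iPSC and 16.8 CPM in ESC, against 0.785 to 7.26 CPM (3.39, adjusted p = 0.0196).

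Around the respiratory chain, Ckmt1, the mitochondrial creatine kinase, rose to 124 CPM in iPSC and 57.1 CPM in ESC at day 35, against 5.61 to 10.1 CPM at day 18 (log2 fold change 3.31, limma, adjusted p = 0.000829). Of 18 genes of the citric acid cycle, 1 was called at day 35, where 7.53% of all genes were. This was Idh2, a mitochondrial isocitrate dehydrogenase. It fell to 29.1 CPM in iPSC and 52 CPM in ESC, against 77.3 to 128 CPM at day 18 (-1.38, limma, adjusted p = 0.00417). Suclg1, a succinyl-CoA ligase subunit, rose along the course (0.039 log2 units per day, adjusted p = 0.0400), and Hspd1, the matrix chaperonin, fell (-0.046, adjusted p = 0.0420). Of 5 genes tested among cytochrome c and subunits outside the symbol rule, none was called by limma; Cyc1, cytochrome c1 of complex III, had a log2 fold change of 0.41 (adjusted p = 0.274) and Atpif1, the inhibitor of the synthase, of -0.59 (adjusted p = 0.0613) at day 35. Of 12 carriers and outer membrane genes, none was called at day 35, where 7.53% of all genes were.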

How the data were processed

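The members, the lists of other pathway genes and markers, and the comparisons were chosen with earlier results of these data known. Per the submitters' processing notes and design text, the authors trimmed reads with Trimmomatic 0.36, estimated transcript abundance with kallisto 0.42.5 against Ensembl cDNA of GRCm38, summed transcripts to genes as length-scaled counts and computed CPM with edgeR. Whether reads were counted by strand is not given in the sources used here. The deposited gene table holds a score, the square of log2(CPM + 1) minus 1, which was turned back into CPM; the transform is not stated and was read from the values, since 97.7% of the 8688 genes compared had a constant ratio to summed counts within 0.001 on the log2 scale. The 2 transcript tables, of deposited estimated counts (expected counts) and deposited TPM, end after 65535 entries. GENCODE vM21, used for coordinates, held 99.3% of these, and gene sums were complete for 56 of 84 members. Sums of estimated counts were rounded to whole numbers for the count tests.

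Because the gene sums of counts are incomplete, the main test was limma 3.58.1 in R 4.3.3. It was fitted with a mean-variance trend to log2(CPM + 1) of 15202 genes with at least 1 CPM in at least 2 of 16 libraries, with source and day as a factor, with source and day as a number, and with different slopes by source. The threshold for a call was 0.05 on p-values adjusted by the method of Benjamini and Hochberg. The scripts were tested on simulated counts, whose spread was set and not taken from these libraries. At day 35 the fit called 20% of 100 genes changed 2-fold and 89% of 100 changed 4-fold. For the slope these shares were 22 and 99%. A gene that was not called may thus still have changed. Intervals are 95% confidence intervals from limma. The alternatives were edgeR 4.0.16 quasi-likelihood with TMM or with DESeq2's size factors and DESeq2 1.42.0 on 9319 genes that had 10 counts or more in 2 or more libraries, CPM rescaled to a common sum, a pseudocount of 0.1, no filter, at least 5 CPM in at least 4 libraries, a replicate block, array weights, each library left out, the low-Nrl day 18 pair left out, and each source alone. A slope without both day 35 libraries and Atp5g2 with its near-identical copies were added after seeing the data.

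Named are the isoform sets and the Sdh genes, the called members, the 2 members of highest mean CPM in each complex and those of highest and lowest day 35 value or slope in each complex; of other lists, up to 4 called genes or the 2 of highest mean CPM. The values of 1 called member are not reported here. Other members named for a count or a smallest p were chosen after their values were seen. No 2 libraries agreed within sampling noise (lowest chi-square per degree of freedom 8.73 over gene sums). That lowest value was between ESC day 18 replicate 1 and iPSC day 18 replicate 1, and the lowest within a group was 33.78. The labels of different groups share replicate numbers and nothing that ties the numbers to a culture or day. Promoter sequences are from RefSeq (GRCm38.p6). The number of libraries per group, 1 to 3, limits the precision.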

Additional observations from a re-analysis of the deposited data

Results flagged for a closer look

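Single libraries stood far from the others of their day in 5 of 64 gene and day groups, where chance gives about 1 in 20. Among the 4 day 21 libraries, ESC replicate 3 was far above the others in Atp5b (974.58 CPM), Cox7a2 (149.24 CPM) and Cox8a (181.08 CPM). That library also had the highest rod marker sum of its day. Among the 5 day 18 libraries, ESC replicate 3 was far above the others in Cox7a2l (228.93 CPM). In the same 5, ESC replicate 2 was far below the others in Ndufa4l2 (9.51 CPM). Atp5l-ps1, a pseudogene name left out by the symbol rule, measured 0.13 CPM in iPSC day 18 replicate 1, the library with the most counts of it, above the limit that a count of 0 allows, and was highest at 0.198 CPM in ESC day 28.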

How the results depend on the processing

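Of 971 values of single genes under an alternative, 830 kept their direction and their side of the threshold, 92 lost their call, 26 gained one and 23 changed sign. For members called, at days 21, 25, 28 and 35 and along the course, array weights gave 32, 42, 51, 0 and 18, where they called 39.7, 62.8, 37.4, 1.92 and 19.9% of all genes. The replicate block gave 8 at day 25, 38 at day 28, 24 at day 35 and 26 along the course. In these contrasts it called 14.2, 15.9, 19.4 and 20.1% of all genes. With the block, 58 of 81 members were positive for iPSC over ESC (median 0.0816). Same-numbered libraries correlated by 0.000 to 0.641 in their deviations from group means (10 of 13 pairs over 0.1). Pairs of different numbers had a median correlation of -0.182 and reached 0.659. Of 10 libraries, 5 correlated best with their own number. Deviations within a group sum to 0, which forces correlations of opposite sign. The check therefore cannot decide whether the numbers pair the libraries, and the main fit did not pair them. Rescaled CPM gave 1 at day 28 (0.813% of all genes called), and no filter on low values gave 1 at day 35 (3.22%). The cause was not tested. DESeq2 gave 3 at day 28 and 2 at day 35, and edgeR with either scaling gave 0 at day 35 and 2 along the course, over fewer members. With fewer libraries, the count at day 35 was 0 without the low-Nrl pair, within ESC alone and within iPSC alone, and along the course it was 1 without the pair and 0 within ESC alone. Leaving out 1 library, with both libraries of the compared day kept, gave 0 to 2 at day 28 (0.0264 to 3.55% of all genes called). At day 35 this gave 1 to 7 (2.33 to 12%), and along the course, over all removals, 1 to 19 (3.66 to 22.1%).

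Of the genes whose day 35 fold change was recomputed under each alternative, 6 changed sign. Atp5g2 was -0.0722 with rescaled CPM, -0.0274 with the replicate block, -0.13 with array weights, -0.21 within ESC alone, -0.15 with its copies and -0.14 to 0.29 with 1 library left out. Cox4i1 was -0.0112 rescaled, -0.15 without the low-Nrl pair, -0.41 within ESC alone and -0.37 to 0.68 with 1 library left out. Cox6a2 was -0.10 within ESC alone and -0.0715 to 1.15 with 1 left out. Sdhb was -0.10 rescaled, -0.11 within ESC alone and -0.15 to 0.27 with 1 left out. Sdhd was -0.009 rescaled, -0.0581 within ESC alone and -0.10 to 0.40 with 1 left out. Uqcrfs1 was 0.0914 with the block, 0.0417 with array weights, 0.0044 within iPSC alone and -0.29 to 0.11 with 1 left out. The day 28 and day 35 groups have 1 library each, which limits every contrast with them.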
